A study of Mus musculus with 9 samples.

Results

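The comparison described here set oxidised low-density lipoprotein (oxLDL) against buffer in mouse valvular interstitial cells in culture. These cells (VICs) resemble fibroblasts and fill the leaflets of the heart valves. Of the 9 RNA-seq libraries of the study, it set 3 given oxLDL against 3 given buffer (Control), matched by replicate number. The 3 libraries given native LDL appear beside them. They also entered the filter on level and the fit, so each p-value rests on all 9 libraries unless stated. The donors of the VICs were C57BL/6J mice, whose aortic and mitral valves were used, and the cells of all 3 groups shared a medium of DMEM with 10% FBS, insulin at 5 μg/mL, EGF at 2 ng/mL and basic FGF at 0.5 ng/mL. The oxLDL and LDL cultures received 50 μg/mL of lipoprotein for 24 h, and the Control cultures received buffer, although 1 label calls them untreated. The labels used here give no animal number, age, sex, passage or degree of oxidation, and do not say whether same-numbered libraries, or libraries of 1 group, were separate cultures, so a p-value speaks only of the spread among these libraries.

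Levels are given in TPM, the share of a gene's transcripts in a library after correction for its length. TPM keeps no read depth, so the depth of each library is unknown and no counting interval is given. Of 51810 genes listed, the 13495 that averaged 1 TPM or more across the 9 libraries were tested. The 6 libraries listed 21076 to 21405 genes above 0. Genes of fibroblast-like cells were present: Vim was at 5297 to 6523 TPM, Col1a1 at 1161 to 1584 TPM, Pdgfra at 146 to 185 TPM and Tcf21 at 116 to 200.4 TPM over the 6 libraries. These genes do not show that the cells came from a valve, which rests on the label. Endothelial Cdh5 (36.4 to 97.7 TPM) and macrophage Lyz2 (70.9 to 516 TPM) were also present, while Myh6 and Myh7 of heart muscle stayed at or below 0.23 TPM.

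LDL particles carry cholesterol into cells, and oxidised particles are taken up by scavenger receptors such as LOX-1 (Olr1) and CD36. When sterols in the endoplasmic reticulum are plentiful, INSIG proteins hold back SREBP2, the transcription factor that drives the enzymes of cholesterol synthesis. Oxidised lipids also modify KEAP1, which frees NRF2 to switch on genes of glutathione, thioredoxin, iron and NADPH metabolism. In the valve, VICs make the collagens, elastin and proteoglycans of the leaflet, and can turn into myofibroblast-like or bone-like cells in disease.

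Promoter sequences of 2 genes are shown because they belong to the largest sets of genes that moved: Hmgcs1 to the sterol genes that were lower with oxLDL and Txnrd1 to the NRF2 targets that were higher. Msmo1, the called gene of cholesterol synthesis with the largest difference, is added for its repeated CCAAT boxes. For each gene the first start site whose window held the motif sought was taken, so the windows were chosen for their motifs. Each stretch is the 250 bases before a RefSeq start site (GRCm38.p6), 5′ to 3′ on the gene's strand, at chr13:119690101-119690350 (+) for Hmgcs1, chr8:64733579-64733828 (-) for Msmo1 and chr10:82858956-82859205 (+) for 1 of the start sites of Txnrd1. Capitals mark the letters TCACNCCAC (a sterol regulatory element core) and CCAAT in Hmgcs1, CCAAT in Msmo1 and TGACNNNGC (an antioxidant response element core) in Txnrd1, on either strand.
Hmgcs1: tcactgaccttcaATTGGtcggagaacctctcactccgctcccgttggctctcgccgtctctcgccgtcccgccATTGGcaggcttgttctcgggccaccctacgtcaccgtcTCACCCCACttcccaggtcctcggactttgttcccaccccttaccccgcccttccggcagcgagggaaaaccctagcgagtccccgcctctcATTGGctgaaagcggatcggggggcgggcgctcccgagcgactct
Msmo1: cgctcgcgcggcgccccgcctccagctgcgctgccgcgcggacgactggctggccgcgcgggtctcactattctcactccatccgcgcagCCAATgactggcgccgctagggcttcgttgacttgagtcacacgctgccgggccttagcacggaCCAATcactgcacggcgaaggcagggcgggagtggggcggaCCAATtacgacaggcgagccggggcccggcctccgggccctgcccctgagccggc
Txnrd1: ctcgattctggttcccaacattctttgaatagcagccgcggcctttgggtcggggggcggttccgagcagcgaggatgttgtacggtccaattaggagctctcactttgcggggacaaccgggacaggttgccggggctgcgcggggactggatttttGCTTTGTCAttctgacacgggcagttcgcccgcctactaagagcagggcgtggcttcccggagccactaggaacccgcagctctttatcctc
Over all 32851 RefSeq promoters of that length, 33.8% held CCAAT, 1.05% TCACNCCAC and 10.2% TGACNNNGC, each searched on both strands, with overlaps between motifs allowed. Of the 20 genes of cholesterol synthesis tested, 15 had a promoter in the table, and 14 of their 18 promoters (77.8%) held CCAAT. Only 1 of 18, that of Hmgcs1, held TCACNCCAC. Of the 27 NRF2 targets, 20 had a promoter, and 4 of 26 promoters (15.4%) held TGACNNNGC. Among the 7 promoters of the 4 called NRF2 targets, only 1 (14.3%), the one shown for Txnrd1, held it. These matches describe the letters of these windows and are neither sites of binding nor causes.

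Limma was fitted to all 9 libraries with the replicate number as a block. Between oxLDL and Control, 17 of 13495 genes (0.126%) passed an adjusted p of 0.05 by this fit: 8 rose (0.0593%) and 9 fell (0.0667%). The block compares each oxLDL library with the Control library of its own number. Among the genes that fell were the cholesterol synthesis enzymes Hmgcs1, Idi1, Fdps, Sqle, Cyp51 and Msmo1 and the proteoglycan gene Ogn. The genes that rose were the NRF2 targets Nqo1, Txnrd1, Pgd and Gstp1, the haem synthesis gene Alas1, the prostaglandin synthase Ptgs2, the small nucleolar RNA Snora61 and the clone-named model AC165157.5. All 17 had groups that did not overlap, as had 989 (7.33%) of the genes tested, and moved one way in all 3 pairs, as had 3658 (27.1%).

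The call of 15 of these 17 genes rested on the block: without it, limma called only Snora61 and AC165157.5 (0.0148% of genes), and the adjusted p of the other 15 lay between 0.073 and 0.79. Snora61 and AC165157.5 were at 0 in all Control and LDL libraries and reached the level for testing only through their oxLDL values. The 6 oxLDL and Control libraries fitted alone gave 0 calls with the block, with 891 genes at an unadjusted p under 0.05, and 1 call with no block. Over all genes the response was small and without a common direction: 49% were higher and 51% lower, the median log2 difference was -0.0028, and 191 genes (1.42%) were at least 2-fold apart in group mean. By GENCODE M21, 9 of the 17 overlap another gene model, among them Fdps, which shares its strand and most of its span with Gm43738, so reads could be split between them. At an unadjusted p under 0.05 there were 1226 genes (9.08%) with the block and 521 (3.86%) without it. The share without the block is below what a threshold of 0.05 gives on average when no gene differs. That fit thus showed no excess of small p-values.

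**Figure D1:**
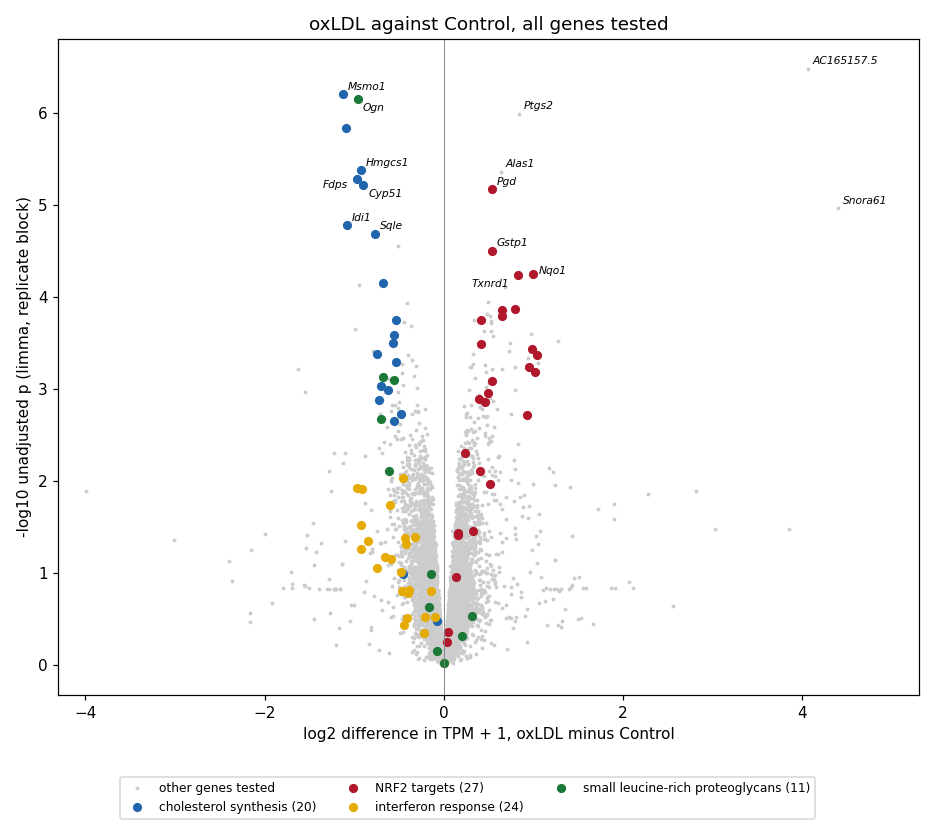
Each point is 1 of the 13495 genes tested, by its log2 difference in TPM + 1 between oxLDL and Control (x axis) and the -log10 of its unadjusted limma p with the replicate block (y axis); colours mark 4 gene lists and names mark called genes. Cholesterol synthesis genes lie on the left with differences down to -1.13, NRF2 targets lie on the right up to 1.04, and Snora61 and AC165157.5, which were listed at 0 in all Control libraries, stand apart on the right.

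Of the gene lists, cholesterol synthesis held the most calls: all 20 tested enzymes were lower with oxLDL, 7 of them fell by the adjusted test, and the list's median log2 difference was -0.69. At an unadjusted p under 0.05, 18 of the 20 were lower, against 4.73% of all genes. In 16 of the 20 all oxLDL values lay below all Control values, against 3.83% of all genes. The list had been examined in these samples before, so its direction is no independent evidence. The median over the list was -0.80, -0.70 and -0.61 in pairs 1, 2 and 3.

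In the mevalonate arm, which builds isoprenoid units from acetyl-CoA, Hmgcs1, Idi1 and Fdps fell. Hmgcs1, the synthase that makes HMG-CoA, was at 72.2, 53.5 and 48.7 TPM in Control replicates 1, 2 and 3 and at 33.5, 28.9 and 27.3 TPM in oxLDL replicates 1, 2 and 3. The lowest Control library was thus well above the highest oxLDL library, a 1.94-fold difference in means (log2 -0.92 ± 0.08 SE, adjusted p = 0.0084, and 0.22 with no block). Idi1, the isomerase of isopentenyl diphosphate, was at 47.8, 34.7 and 26.8 TPM in Control and 21.9, 15.4 and 12.7 TPM in oxLDL (log2 -1.08, adjusted p = 0.019, 0.51 with no block). Fdps, which joins the units to farnesyl diphosphate, was at 215, 156 and 119.8 TPM and 109, 71.2 and 67.3 TPM (log2 -0.97, adjusted p = 0.0088, 0.7 with no block). For Idi1 and Fdps replicate 1 was the highest of its group in both treatments, and the groups were separate but close, since oxLDL replicate 1 came near Control replicate 3.

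Of the members of this arm that did not pass, Acat2, Mvk, Pmvk and Mvd differed by log2 -0.62, -0.55, -0.55 and -0.72, with adjusted p between 0.089 and 0.24, and the median over the 8 genes of the arm was -0.67.

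In the branch from squalene to sterols, Msmo1, Cyp51 and Sqle were among the genes that fell, and the median over its 12 genes was -0.69. Msmo1, the methylsterol monooxygenase, was at 79.7, 57.6 and 51.4 TPM in Control and 38.4, 22.9 and 24.4 TPM in oxLDL. Every oxLDL library was below every Control library, and the difference was 2.2-fold (log2 -1.13 ± 0.07 SE, adjusted p = 0.0032, 0.49 with no block).

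Cyp51, the lanosterol demethylase, was at 65.6, 48.6 and 38.9 TPM in Control and 34.6, 24.1 and 21.9 TPM in oxLDL (log2 -0.90, adjusted p = 0.0091, 0.69 with no block). Sqle, the squalene epoxidase that controls entry into this branch, was at 52.7, 40.8 and 37.7 TPM and 29.7, 24.4 and 21.6 TPM (log2 -0.77, adjusted p = 0.021, 0.42 with no block). Both kept the order of the replicates in both groups, with number 1 highest and number 3 lowest. Ebp, a sterol isomerase, had the smallest difference of the branch, a log2 of -0.08 (adjusted p = 0.83). Fdft1, the squalene synthase, came nearest to the threshold among those that missed it (log2 -0.68, adjusted p = 0.052).

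Without a whole replicate number, Msmo1, Fdps and Idi1 kept their calls in 1 of 3 fits, and Hmgcs1, Cyp51 and Sqle in 0. With the oxLDL and Control libraries alone, none of these was called. Leaving out each of the 9 libraries in turn, Msmo1 kept its call in 9 of 9 fits. Hmgcs1 lost it without Control 2, oxLDL 1 or oxLDL 2 (up to 0.098), and Cyp51 and Fdps without Control 1, Control 2, oxLDL 1 or oxLDL 2 (up to 0.13 for both). Idi1 kept it only without Control 3, LDL 1 or LDL 3, and Sqle only without LDL 1 or LDL 3, with adjusted p up to 0.24 for both in the other fits.

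**Figure D2:**
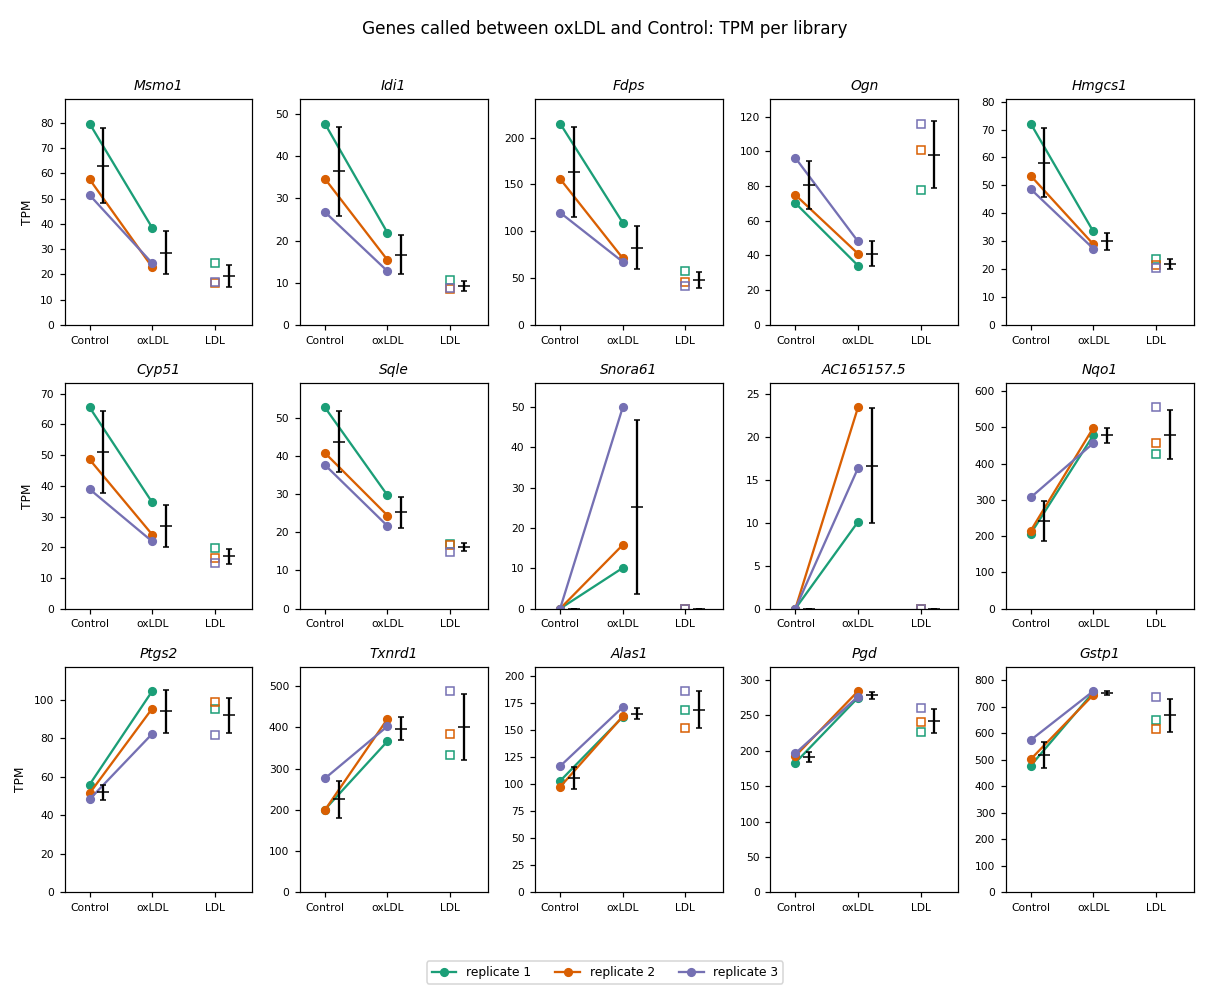
TPM of 15 called genes in every library (y axis, linear from 0), with lines joining Control and oxLDL libraries of the same replicate number, open squares for LDL, and black bars for the mean ± SD of 3 libraries. The sterol genes run down in parallel from different starting levels, as in Msmo1 from 79.7, 57.6 and 51.4 TPM to 38.4, 22.9 and 24.4 TPM, while Ogn is lower in oxLDL than in both other groups, and Snora61 and AC165157.5 lie at 0 in both other groups.

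The genes of sterol sensing and transport were less uniform. Insig1, which anchors the SREBP complex and is itself a target of SREBP, was at 78.1, 50.2 and 43.1 TPM in Control and 37.0, 23.9 and 25.6 TPM in oxLDL (log2 -0.94) and missed the threshold at an adjusted p of 0.052. Srebf2, the gene of SREBP2, differed by -0.35 (adjusted p = 0.12) and Stard4, a sterol carrier, by -0.51 (adjusted p = 0.21). Of the 11 tested genes of this list, 4 were lower and 0 higher at an unadjusted p under 0.05, against 4.73% and 4.36% of all genes. The median was -0.06.

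Fatty acid synthesis, part of which SREBP1 drives, showed no called gene among 14. At an unadjusted p under 0.05, 7 were lower and 0 higher, against 4.73% and 4.36% of all genes, with a median of -0.17. With no block 5 were lower at that level, against 3.86% of all genes in either direction. The fatty acid synthase Fasn averaged 133 ± 9.10 TPM in Control and 96.2 ± 9.68 TPM in oxLDL (SD, n = 3; adjusted p = 0.13 by limma), and the desaturase Scd2 192 ± 62.5 and 133 ± 33.4 TPM (adjusted p = 0.28).

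All 27 tested NRF2 targets were higher with oxLDL, 4 of them rose by the adjusted test, and the median log2 difference was 0.52. At an unadjusted p under 0.05, 24 of 27 were higher, against 4.36% of all genes, and in 19 all oxLDL values lay above all Control values, against 3.5% of all genes. With no block 19 were higher at that p level, against 3.86% of all genes in either direction. The medians of pairs 1, 2 and 3 were 0.58, 0.57 and 0.41. As for the sterol genes, the list was known from these samples.

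Of the thioredoxin and quinone genes, which recycle oxidised proteins and quinones, Nqo1 and Txnrd1 rose, and the median over all 6 was 0.64. Nqo1, a quinone reductase, was at 207, 215 and 306 TPM in Control and 478, 498 and 456 TPM in oxLDL. Control replicate 3 stood above the other two Control libraries and still below all of oxLDL, and the means differed 1.97-fold (log2 1.0 ± 0.12 SE, adjusted p = 0.046, 0.22 with no block). Txnrd1, thioredoxin reductase, was at 201, 199 and 276 TPM and 366, 420.2 and 403 TPM, with the same high Control replicate 3 (log2 0.83, adjusted p = 0.046, 0.46 with no block). Srxn1, the sulfiredoxin, differed by a similar log2 0.98 and did not pass (adjusted p = 0.11).

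Glutathione genes were all higher, and Gstp1 rose. Gstp1, a glutathione transferase, was at 478, 502 and 575 TPM in Control and at 755, 745 and 759 TPM in oxLDL. The 3 oxLDL libraries were almost level while Control replicate 3 again was the highest of its group (log2 0.54 ± 0.06 SE, adjusted p = 0.029, 0.23 with no block). Its near-identical neighbour Gstp2 was listed at 1.72 to 1.84 TPM in Control and 2.48 to 3.82 TPM in oxLDL, and the counting could have split reads between them. Larger differences did not pass: Slc7a11, the cystine importer, was at 5.26, 4.12 and 7.72 TPM and 12.1, 12.8 and 12.4 TPM (log2 1.04, adjusted p = 0.11), and Gclm, the modifier subunit of glutamate-cysteine ligase, at 154, 143 and 229 TPM and 298, 378 and 375 TPM (log2 1.02, adjusted p = 0.13). In both, every oxLDL library exceeded every Control library, but Control replicate 3 was the highest of its group.

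Among the genes that supply NADPH, Pgd rose. Pgd, an enzyme of the pentose phosphate pathway, was at 183, 193 and 196 TPM in Control and 275, 284 and 277 TPM in oxLDL. Both groups were tight and far apart (log2 0.54 ± 0.05 SE, adjusted p = 0.0091), and with no block its adjusted p was 0.073. Taldo1 of the same pathway differed by log2 0.65 (adjusted p = 0.078), while G6pdx, which opens it, differed by 0.16 (adjusted p = 0.51).

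In the haem and iron group no gene passed. Hmox1, haem oxygenase 1, was at 159, 124 and 131 TPM in Control and 320.0, 218 and 271 TPM in oxLDL, without overlap (log2 0.95, adjusted p = 0.13). The ferritin chains Ftl1 and Fth1 averaged 4703 ± 265 and 5606 ± 2022 TPM in Control and 6264 ± 388 and 7766 ± 924 TPM in oxLDL (SD, n = 3), with adjusted p of 0.078 and 0.39 by limma. NRF2 itself (Nfe2l2) and Keap1 had log2 differences of 0.03 and -0.05, and none of the 7 genes of NRF2 and its regulators passed. The small Maf partners Maff and Mafg differed by 0.22 and 0.26 (adjusted p = 0.4 and 0.48).

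Leaving out each library in turn, Nqo1 kept its call only without Control 3 or oxLDL 3 (adjusted p up to 0.37 in the others), Txnrd1 and Gstp1 only without oxLDL 3 (up to 0.35 and 0.26), and Pgd only without LDL 1, LDL 3 or oxLDL 3 (up to 0.13).

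Alas1, the first and rate-limiting enzyme of haem synthesis outside red cells, rose. It was at 103, 97.7 and 117 TPM in Control and 162, 163 and 172 TPM in oxLDL. The oxLDL libraries lay close together and all above the Control libraries (log2 0.64 ± 0.05 SE, adjusted p = 0.0084, 0.16 with no block, and up to 0.13 when Control 1, Control 2 or oxLDL 1 was left out). Of the later enzymes of the pathway, Ppox differed by -0.19 (adjusted p = 0.39). The transferrin receptor Tfrc, through which cells take up iron, differed by 0.50 (adjusted p = 0.15). Over the 11 genes of haem synthesis and iron uptake the median was 0.13.

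Ptgs2 (COX-2), the inducible synthase of prostaglandin H2, rose. It was at 56.0, 51.5 and 48.4 TPM in Control and 105, 95.6 and 82.4 TPM in oxLDL. All 3 oxLDL libraries stood above the Control libraries, a 1.81-fold difference (log2 0.84 ± 0.06 SE, adjusted p = 0.0035, 0.091 with no block), and the call was lost only without Control replicate 1 (adjusted p = 0.061) among the 9 fits without a library. It held in 1 of 3 fits without a whole replicate number, and was lost with the oxLDL and Control libraries alone. All 13 genes of the prostaglandin list were higher in the fit, with a median of 0.12. Of these, 4 had an unadjusted p under 0.05, against 4.36% of all genes that were higher at that level. With no block 3 did, against 3.86% of all genes in either direction. Abcc4, an exporter of prostaglandins, differed by 0.73 (adjusted p = 0.11), the constitutive synthase Ptgs1 by 0.25 (adjusted p = 0.29) and the phospholipase Pla2g4a, which releases arachidonic acid, by 0.29 (adjusted p = 0.36).

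No other inflammatory or NF-kB target passed: of 27 tested, 21 were higher, 8 of them at an unadjusted p under 0.05 (4.36% of all genes). With no block 2 were higher at that level, against 3.86% of all genes in either direction. The median was 0.21, and it was 0.31, -0.01 and 0.29 in pairs 1, 2 and 3. The neutrophil attractant Cxcl1 was at 75.4, 261 and 127 TPM in Control and 107, 305 and 199 TPM in oxLDL (log2 0.46, adjusted p = 0.13). It was higher with oxLDL in each pair, but the groups overlapped because replicate 2 was high in both. Il6 was at 47.1, 75.7 and 16.9 TPM and 69.5, 69.1 and 55.8 TPM (adjusted p = 0.52), and Ccl2, which draws monocytes, at 510.1, 1160 and 502 TPM and 690.2, 1148 and 553 TPM (adjusted p = 0.64). For Il6 the low Control replicate 3 made most of the difference, and pair 2 went the other way.

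In these data Ogn, the gene of osteoglycin, a small leucine-rich proteoglycan (SLRP) of the matrix, fell with oxLDL. It was at 70.1, 74.8 and 96.1 TPM in Control, at 34.1, 41.0 and 48.0 TPM in oxLDL and at 77.5, 101 and 116 TPM in LDL. Every oxLDL library was below every library of both other groups (log2 against Control -0.95 ± 0.06 SE, adjusted p = 0.0032, 0.42 with no block), and the call with the block held in 9 of 9 fits without a library. That call held in only 1 of the fits that left out a whole replicate number. It was also lost when the oxLDL and Control libraries were fitted alone. Against LDL, Ogn differed by -1.23 (adjusted p = 0.00072, 0.065 with no block).

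Ogn lies at chr13:49608046-49624501 (GRCm38, + strand), beside the SLRP genes Omd (chr13:49582462-49592822), Aspn (chr13:49544443-49567565) and Ecm2 (chr13:49504810-49532789) on the same strand. Omd, osteomodulin, was at 4.28, 4.01 and 7.22 TPM in Control and 2.59, 2.57 and 3.15 TPM in oxLDL (log2 -0.68, adjusted p = 0.14). Aspn, asporin, was at 4.50, 2.24 and 3.48 TPM and 2.36, 1.3 and 1.43 TPM (log2 -0.70, adjusted p = 0.23). Neither passed: the 3 oxLDL libraries of Omd were below all of Control, those of Aspn overlapped, and both genes were scarce. Ecm2 differed by -0.17 (adjusted p = 0.77). All 4 lie within the span of Cenpp, a centromere protein gene on the other strand (chr13:49464023-49652785), which averaged 9.85 TPM in Control and 7.27 TPM in oxLDL (log2 -0.39, adjusted p = 0.31). The kit does not mark strand, so reads of Cenpp and of these genes cannot be told apart where they overlap. The flanking genes Ippk and Nol8 differed by 0.05 and 0.05.

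Of the 11 SLRP genes tested, Ogn alone fell, 5 were lower at an unadjusted p under 0.05 (4.73% of all genes), and the median was -0.17. Fmod, fibromodulin, was at 66.1, 66.8 and 58.2 TPM in Control and 45.1, 44.3 and 39.2 TPM in oxLDL, without overlap (log2 -0.56, adjusted p = 0.15). Epyc, epiphycan, differed by -0.61 (adjusted p = 0.36). Of the most abundant members, Bgn, biglycan, averaged 3449 ± 367 TPM in Control and 3457 ± 269.8 TPM in oxLDL, and Dcn, decorin, 2035 ± 816 and 2502 ± 868 TPM (SD, n = 3).

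**Figure D3:**
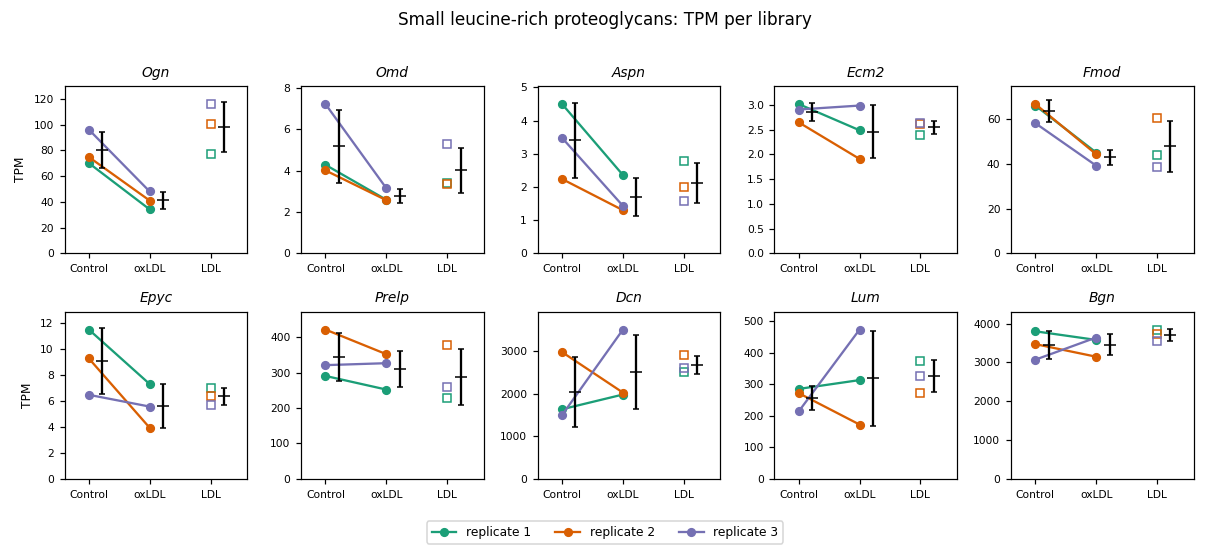
TPM of 10 small leucine-rich proteoglycan genes in every library (y axes linear from 0), with lines joining Control and oxLDL libraries of the same replicate number, open squares for LDL and black bars for the mean ± SD of 3 libraries. Ogn is lower in all 3 oxLDL libraries (34.1, 41.0 and 48.0 TPM) than in any Control or LDL library, whereas Dcn, Lum and Bgn move in different directions in the 3 pairs.

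Other matrix genes gave no calls, where the share called over all genes was 0.126%. Among 20 collagen chains the median was -0.04, with the basement membrane chains Col4a1 and Col4a2 at log2 0.33 and 0.25 (adjusted p = 0.31 and 0.35) and Col11a1 and Col14a1 at -0.52 and -0.57 (adjusted p = 0.3 and 0.43). Col1a1, the main fibrillar chain, was at 1584, 1346 and 1161 TPM in Control and 1383, 1260 and 1362 TPM in oxLDL. Eln, elastin, was at 316, 66.5 and 186 TPM and 119, 77.8 and 88.5 TPM (adjusted p = 0.5). It varied widely within Control and was higher with oxLDL in pair 2, so the groups overlapped. Of the 29 genes of elastic fibres, crosslinking and other matrix, 2 were higher and 4 lower at an unadjusted p under 0.05. The shares over all genes were 4.36% and 4.73%, and the median of the list was -0.02. With no block 0 of its genes were higher and 0 lower at that level.

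Plaur, the urokinase receptor, differed by 0.48 (adjusted p = 0.26), and the median over 22 proteases and inhibitors was 0.04.

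Snora61, an H/ACA-type small nucleolar RNA, was listed at 0 in all Control and LDL libraries and at 10.1, 15.8 and 49.9 TPM in oxLDL replicates 1, 2 and 3. It rose by limma (adjusted p = 0.013, 0.033 with no block), with oxLDL replicate 3 far above the other oxLDL libraries. No fold change is given, since the Control level is listed at 0 and a 0 in such a table can be a failed estimate. The gene spans chr4:132310240-132310369 (GRCm38, + strand) in GENCODE M21, inside the host gene Snhg12, and is shown whole because it is so short; capitals mark the ACA box 3 bases before the 3′ end.
Snora61: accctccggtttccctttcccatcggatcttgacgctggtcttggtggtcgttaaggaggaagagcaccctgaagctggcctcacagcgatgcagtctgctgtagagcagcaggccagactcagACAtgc
Its host Snhg12 was at 30.5, 43.3 and 39.9 TPM in Control and 34.3, 40.5 and 46.1 TPM in oxLDL (log2 0.09, adjusted p = 0.81). Of the 28 small RNA genes tested, 22 were at 0 in at least 1 library. Snora44 was listed at 0, 0 and 0 TPM in Control, 18.4, 0 and 26.8 TPM in oxLDL and 20.6, 0 and 0 TPM in LDL. Snora65 was listed at 0, 0 and 0 TPM in Control, 0, 114 and 25.5 TPM in oxLDL and 0, 0 and 25.4 TPM in LDL. Both were thus at 0 in some oxLDL and LDL libraries and above it in others.

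AC165157.5, a clone-named model without a match in GENCODE M21, was also listed at 0 in the 6 Control and LDL libraries and at 10.1, 23.5 and 16.4 TPM in the 3 oxLDL libraries (adjusted p = 0.0032, 0.00082 with no block). Of 13 tested genes at 0 in all Control and LDL libraries, these 2 alone were above 0 in all 3 oxLDL libraries. Such genes reached the level for testing only through their oxLDL values, so their calls and this count are no independent evidence. The same pattern for LDL alone, or for Control alone, was seen in 0 tested genes. AC165157.5 kept its call in 9 of 9 fits without a library and in 2 of 3 without a whole replicate number. Snora61 lost its call without any 1 Control library, LDL 2 or oxLDL 2 (adjusted p up to 0.13), and kept it in 1 of 3 fits without a replicate number.

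Genes that handle lipid after uptake gave no calls, where the share called over all genes was 0.126%. Of 25 PPAR targets and fatty acid oxidation genes, 9 were higher and 0 lower at an unadjusted p under 0.05, against 4.36% and 4.73% of all genes. With no block 4 were higher and 0 lower at that level, against 3.86% of all genes in either direction. The median was 0.09. Angptl4, a lipase inhibitor and PPAR target, was at 32.5, 75.7 and 31.2 TPM in Control and 100.4, 116 and 99.0 TPM in oxLDL (log2 1.28, adjusted p = 0.1). Control replicate 2 was the high one of its group, and the groups did not overlap. Cpt1a, the gate of mitochondrial fatty acid oxidation, was at 54.2, 49.3 and 50.9 TPM and 68.4, 67.0 and 76.4 TPM (log2 0.45, adjusted p = 0.085). The lipid droplet gene Plin2 differed by 0.22 (adjusted p = 0.49), and Pparg itself was scarce, at 1.85, 0.96 and 2.92 TPM in Control and 1.96, 1.43 and 1.35 TPM in oxLDL.

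Among LXR targets, which export cholesterol, Abca1 differed by 0.34 (adjusted p = 0.31) and Abcg1 by 0.39 (adjusted p = 0.53), and the median over 14 genes was 0.05. None of the 12 scavenger receptors had an unadjusted p under 0.05, and their median was 0.00 to 2 decimals. Olr1 was at 7.19, 7.10 and 2.72 TPM in Control and 9.25, 4.33 and 8.86 TPM in oxLDL, Cd36 averaged 18.3 ± 11.8 and 24.8 ± 16.1 TPM, and Msr1 8.45 ± 3.35 and 8.18 ± 5.50 TPM (SD, n = 3). The 3 pairs disagreed for this list, with medians of -0.02, -0.36 and 0.39.

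The interferon response list was lower without a call. Of its 24 genes 23 were lower, 9 of them at an unadjusted p under 0.05 (4.73% of all genes). With no block 2 were lower at that level, against 3.86% of all genes in either direction. The median was -0.45, but in none of the 24 did the groups separate. The medians of pairs 1, 2 and 3 were -0.85, -0.57 and 0.07, so pairs 1 and 2 carried it. Ifit3, an antiviral effector, was at 79.5, 44.2 and 71.6 TPM in Control and 21.5, 27.5 and 60.9 TPM in oxLDL (adjusted p = 0.4). Isg15, a ubiquitin-like modifier, was at 142, 131 and 165 TPM and 36.2, 65.1 and 183 TPM (adjusted p = 0.56). Both were low in oxLDL replicates 1 and 2, while oxLDL replicate 3 lay within the Control range for Ifit3 and above it for Isg15. With 0 calls by limma, the largest log2 difference of the list was -0.96, of Ifit3b (adjusted p = 0.4), and across leave-one-out and other fits the list's median ran from -0.77 to -0.20.

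The p53 target list was higher without a call: 22 of 24 genes were higher, 8 at an unadjusted p under 0.05 (4.36% of all genes). With no block 5 were higher at that level, against 3.86% of all genes in either direction. The median was 0.16. Cdkn1a (p21), the inhibitor of cyclin-dependent kinases, was at 153, 167 and 162 TPM in Control and 203, 202 and 203 TPM in oxLDL (log2 0.33, adjusted p = 0.078). Both groups were tight and did not overlap. Mdm2, the ubiquitin ligase of p53, differed by 0.25 (adjusted p = 0.22) and Gdf15, a secreted stress factor, by 0.39 (adjusted p = 0.27). None of the 35 cell cycle genes had an unadjusted p under 0.05, and their median was -0.06, with Mki67 at -0.17 (adjusted p = 0.69).

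The osteogenic, contractile, TGF-beta and BMP, Notch and Wnt, and retinoic acid lists showed no called gene with oxLDL at 24 h. Since only 0.126% of all genes were called, lists this short would seldom hold a call. At an unadjusted p under 0.05, 2 contractile, 3 TGF-beta and BMP, and 2 retinoic acid genes were lower and 0 higher. Of the Notch and Wnt genes 1 was higher and 2 lower. The shares over all genes were 4.36% higher and 4.73% lower. In the osteogenic and calcification list, 0 of 13 genes had an unadjusted p under 0.05 by limma, with or without the block. Runx2, the master factor of bone formation, was at 3.36, 3.38 and 3.01 TPM in Control and 3.66, 3.09 and 4.75 TPM in oxLDL. Alpl, alkaline phosphatase, was at 50.8, 95.8 and 41.0 TPM and 42.9, 55.7 and 92.7 TPM, and Spp1, osteopontin, at 888, 651 and 792 TPM and 1645, 561 and 852 TPM. The groups of all 3 genes overlapped, and single libraries stood out, such as oxLDL replicate 1 for Spp1. The 95% interval of the log2 difference was -0.14 to 0.49 for Runx2, -0.70 to 0.80 for Alpl and -0.47 to 0.99 for Spp1.

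Contractile and myofibroblast genes had a median of -0.05 over 18. Acta2, smooth muscle actin, was at 725, 928 and 842 TPM in Control and 677, 744 and 782 TPM in oxLDL (log2 -0.18, adjusted p = 0.64). In TGF-beta and BMP signalling the median over 29 genes was -0.01, and the BMP targets Id1, Id2 and Id3 differed by -0.16, -0.18 and -0.21 (adjusted p = 0.4, 0.37 and 0.33). Of the 27 Notch and Wnt genes (median 0.03), the Wnt inhibitor Nkd2 differed by 0.51 and the receptor Fzd2 by -0.30 (adjusted p = 0.3 and 0.27). The retinoic acid list had a median of -0.01 over 15 genes, with Aldh1a2, which makes retinoic acid, at -0.44 (adjusted p = 0.4).

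Lists of stress, metabolism and growth had no called gene either, where the share called over all genes was 0.126%. Medians were 0.09 for 20 genes of the integrated stress response, -0.06 for 21 of the unfolded protein response, 0.07 for 15 heat shock proteins and 0.01 for 29 lysosomal and autophagy genes. Glycolysis and hypoxia genes had a median of 0.08 over 26, with 4 higher at an unadjusted p under 0.05 (4.36% of all genes). Among them was Pkm at 0.26 (adjusted p = 0.31). With no block 2 were higher at that level, against 3.86% of all genes in either direction. Of 24 immediate early genes (median 0.07), Fosl1 of the AP-1 family was at 25.1, 30.7 and 36.9 TPM in Control and 45.4, 53.4 and 47.5 TPM in oxLDL (log2 0.65, adjusted p = 0.13), without overlap. Nuclear respiratory chain genes and ribosomal proteins lay near the median of all genes, at -0.03 over 29 and -0.02 over 25.

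**Figure D4:**
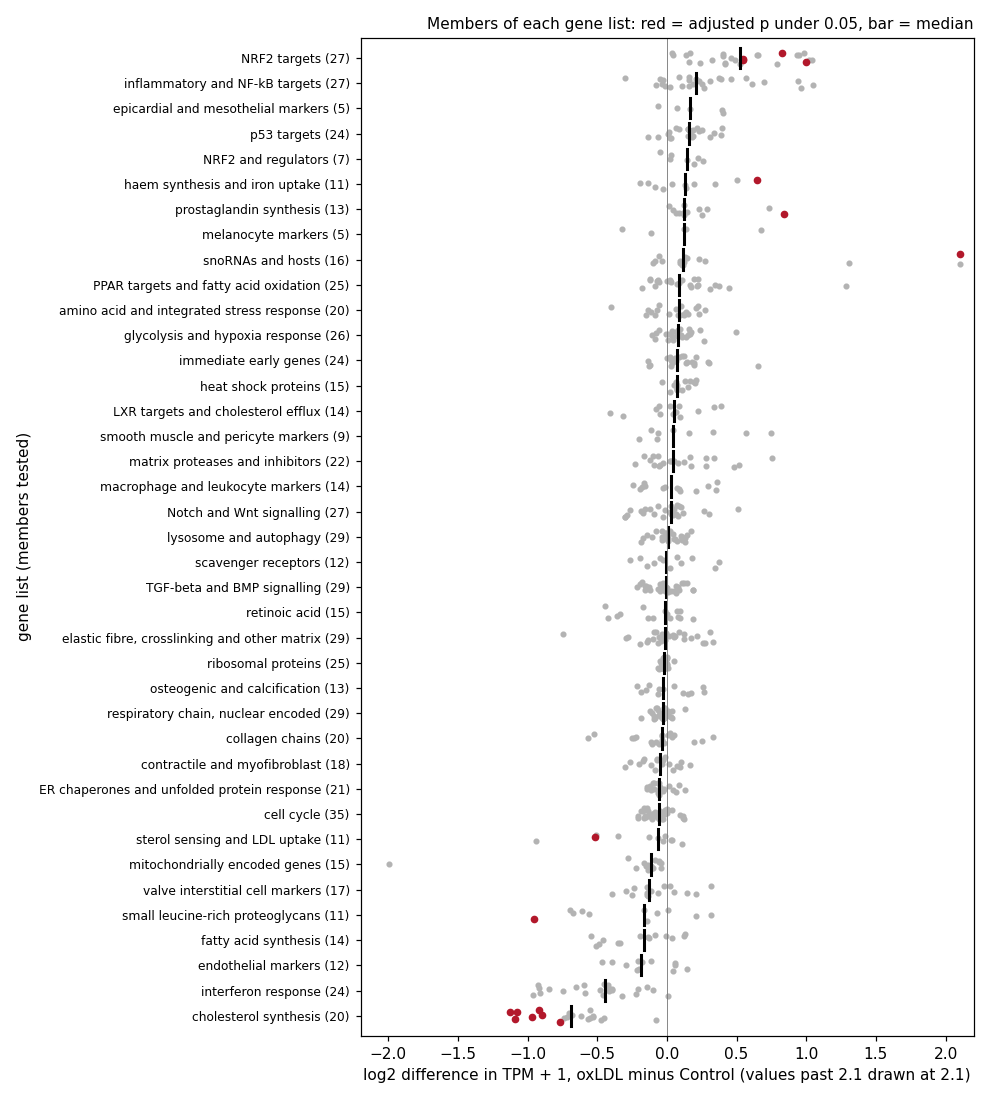
Each row is a gene list with the number of members tested, and each point a member's log2 difference in TPM + 1, oxLDL minus Control (x axis); red points passed an adjusted p of 0.05 and black bars are list medians. Cholesterol synthesis (-0.69) and NRF2 targets (0.52) lie at the bottom and top of the lists, and most other medians lie within 0.2 of zero.

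The rule for large and separated differences (mean of at least 5 TPM, unadjusted p under 0.01, one direction in all pairs, no overlap) left 104 genes higher and 101 lower, clone-named models included. Among the 12 largest of each direction, 9 that were higher and 5 that were lower had not passed the adjusted test, of which 1 and 3 were clone-named models or pseudogenes. Beside those given above, the others include the glutathione transferases Gsta3, at 37.2, 31.7 and 52.4 TPM in Control and 69.8, 87.5 and 94.0 TPM in oxLDL (log2 1.05, adjusted p = 0.13), and Gsta1 (log2 1.17, adjusted p = 0.36), whose family members are so alike that reads could be shared. The translation factor gene Eef1a2 was at 3.31, 5.90 and 4.44 TPM and 7.91, 11.6 and 9.81 TPM (log2 0.97, adjusted p = 0.089). The zinc finger gene Zfp969 was at 19.4, 25.9 and 24.6 TPM and 17.5, 6.24 and 7.22 TPM (log2 -1.23, adjusted p = 0.34), with oxLDL replicate 1 just below the Control range and the other oxLDL libraries far below it.

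The 3 pairs differed in how much they moved. The SD of the log2 differences over genes was 0.319, 0.365 and 0.421 in pairs 1, 2 and 3, against 0.416 to 0.433 between Control libraries and 0.421 to 0.439 between oxLDL libraries. A treated and an untreated library of 1 number thus differed no more than the most distant libraries of 1 treatment. In pairs 1 and 2, 144 and 162 genes differed by more than 1 on the log2 scale, and in pair 3, 276 did, 190 of them higher. Across genes, which are not independent replicates, the pair differences correlated at Pearson's r of 0.102 (pairs 1 and 2), 0.161 (1 and 3) and -0.105 (2 and 3).

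Macrophage genes moved with the pairs. The summed level of the macrophage and leukocyte list was 271 to 547 TPM in Control and 121 to 869.7 TPM in oxLDL, with median pair differences of 0.09, -0.90 and 0.54, and C1qa was at 24.8, 4.93 and 12.2 TPM in Control and 26.7, 1.54 and 51.6 TPM in oxLDL. The leukocyte gene Ptprc ranged from 0.5 to 3.51 TPM over the 6 libraries. The list had 14 tested members, none with an unadjusted p under 0.05, and its part in the scavenger receptor and other differences was not tested. Fewer cells of a type and less RNA per cell cannot be told apart in such bulk samples. Endothelial markers summed to 248 to 513 TPM in Control and 242 to 521 TPM in oxLDL, melanocyte markers to 8.36 to 20.5 and 7.42 to 21.4 TPM, and VIC markers to 21432 to 22966 and 20470 to 22276 TPM. Of 17 VIC markers 12 were lower (median -0.13, and -0.18, -0.08 and -0.10 in pairs 1, 2 and 3). By limma, 4 were lower and 1 higher at an unadjusted p under 0.05 (4.73% and 4.36% of all genes), with 0 calls. Of 12 endothelial markers 8 were lower, 2 at that level, with 0 calls and a median of -0.19. With no block, 1 VIC marker and 0 endothelial markers were lower at that level, against 3.86% of all genes in either direction. Medians were 0.05 over 9 smooth muscle and pericyte markers and 0.17 over 5 epicardial and mesothelial markers, while 1 cardiomyocyte marker, Tnnt2 (log2 -0.46, adjusted p = 0.76), and 0 haemoglobin or erythroid markers reached the level for testing. Mitochondrially encoded genes (median -0.11 over 15) took 1.71 to 3.25% of TPM, lowest in number 1 and highest in number 3 of both groups.

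**Figure D5:**
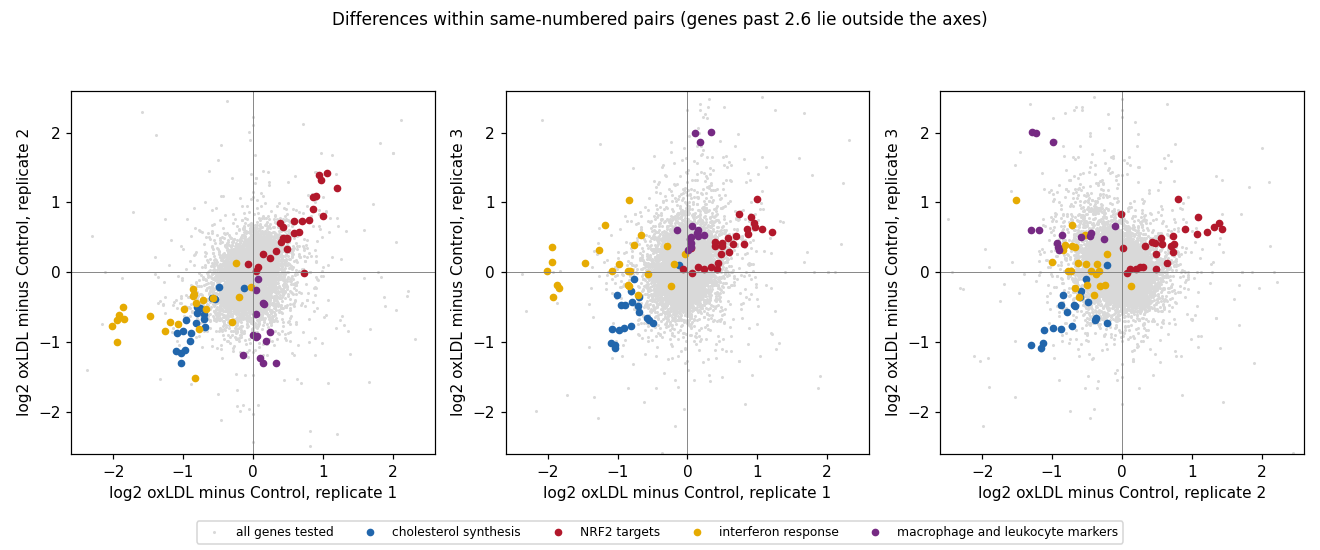
Log2 differences in TPM + 1 between oxLDL and Control within same-numbered pairs, each panel setting 1 pair (x axis) against another (y axis); grey points are all genes tested and colours mark 4 lists. Most cholesterol synthesis and NRF2 genes keep their side in all panels, interferon genes are low in pairs 1 and 2 (medians -0.85, -0.57 and 0.07 in pairs 1, 2 and 3), and macrophage markers are low in pair 2 and high in pair 3 (medians 0.09, -0.90 and 0.54).

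Native LDL was compared only to show where oxLDL differed from it; both were set against the same Control libraries. Limma with the block called 35 genes (0.259%) between oxLDL and LDL and 14 (0.104%) without it, and 9 of the 17 genes called against Control were among the 35. They included the cholesterol synthesis enzymes Fdps, Cyp51, Sqle and Msmo1, which were higher with oxLDL than with LDL. Fdps was at 109, 71.2 and 67.3 TPM in oxLDL and 57.0, 45.4 and 41.3 TPM in LDL (log2 oxLDL minus LDL 0.75, adjusted p = 0.027, 0.83 with no block). Cyp51 was at 34.6, 24.1 and 21.9 TPM in oxLDL and 19.7, 16.5 and 14.7 TPM in LDL (log2 0.61, adjusted p = 0.04, 0.93 with no block). Every LDL library was below every oxLDL library for both genes. The medians of the cholesterol synthesis list against Control were -0.69 for oxLDL and -1.0 for LDL. For the NRF2 targets they were 0.52 and 0.51, and Nqo1, Txnrd1, Gstp1, Pgd, Alas1 and Ptgs2 were not called between oxLDL and LDL; Ptgs2 was at 95.3, 98.9 and 81.9 TPM in LDL. The PPAR and fatty acid oxidation list had medians of 0.09 for oxLDL and 0.31 for LDL, with Angptl4 at 169.9, 235 and 195 TPM in LDL.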

How the data were processed

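The authors deposited TPM values per gene for 9 libraries, from amplified cDNA, an unstranded kit and paired reads of 100 bp, per the labels' protocols. STAR, RSEM 1.3.1 and the build mm10 are named, per the submitters' processing notes; no source used here gives the annotation. All 9 columns were mapped by title, with 0 columns left out. GENCODE M21 (GRCm38) gave gene positions and matched 47624 of 51810 symbols (91.9%), and promoters came from RefSeq GRCm38.p6.

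From the deposited TPM, log2(TPM + 1), that is a pseudocount of 1, was computed for 13495 genes that averaged 1 TPM or more, and 38315 were left out. Differences are on that scale, which understates changes of low genes. Genes were tested two-sided with limma 3.58.1 (R 4.3.3; eBayes with a trended prior), adjusted by Benjamini-Hochberg over all genes tested, with a threshold of 0.05. The fit was run on simulated data with normal noise and replicate effects built in. Such data assume the block, so this run cannot show whether the block or the calls are sound. All 9 libraries shared 1 estimate of the spread, with treatment and replicate number as terms (4 residual degrees of freedom; 6 with no block). The comparison was defined as paired by replicate number, hence the block. Over genes, libraries' deviations from their group mean correlated at 0.172 to 0.497 in the 9 same-numbered pairs and at -0.309 to 0.13 in the 18 others. Deviations within a group sum to 0, so high values in same-numbered pairs lower the others by arithmetic. The highest values, 0.472 to 0.497, were all of number 1, and Control 3 correlated at 0.13 with oxLDL 2 and at 0.172 with oxLDL 3. The labels state no shared culture or day. With 3 pairs the smallest two-sided sign permutation p is 0.25, so none is given per gene.

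Genes were named by a rule: every called gene, the 12 largest separated differences in each direction (clone-named models were counted, and named only if called), the called members and up to 4 with the lowest p of each of 41 gene lists, and a few genes whatever their result; some genes that the rule names are not reported here. Neighbours of Ogn, Snora44, Snora65, other members of the lists and genes used to check cell types were named after their values were seen. The members and lists were chosen with earlier results of these data known. Alternatives tried were no block, the oxLDL and Control libraries alone, other pseudocounts, filters and scalings, a prior without trend, no small RNA or clone-named models, and leaving out each library or replicate number.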

Additional observations from a re-analysis of the deposited data

Results flagged for a closer look

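Of the 17 genes called between oxLDL and Control, 9 also differed between oxLDL and LDL by limma with the replicate block, which is a test of the difference between the responses to the 2 lipoproteins. Among them, sterol genes were higher with oxLDL than with LDL by a log2 difference of 0.75 for Fdps (adjusted p = 0.027), 0.61 for Cyp51 (adjusted p = 0.04), 0.61 for Sqle (adjusted p = 0.044) and 0.53 for Msmo1 (adjusted p = 0.045). Ogn was lower with oxLDL than with LDL by a log2 difference of -1.23 (adjusted p = 0.00072). Snora61 and AC165157.5 were listed at 0 in all LDL libraries, and their fitted differences of 4.40 and 4.07 depend on the pseudocount (adjusted p = 0.018 and 0.0011). Both reached the level for testing only through their oxLDL values. Without the block Snora61 and AC165157.5 passed, while Fdps, Cyp51, Sqle, Msmo1 and Ogn did not.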

How the results depend on the processing

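Against the 17 genes called between oxLDL and Control (8 higher, 9 lower), with no replicate block 2 were called (2 higher, 0 lower), and with the oxLDL and Control libraries alone 0 with the block (0 higher, 0 lower) and 1 without (1 higher, 0 lower). A prior without trend called 11 (4 higher), and leaving out small RNA and clone-named models, so that 11853 genes were tested, called 35 (21 higher, 14 lower). A pseudocount of 5, no filter on low values and median-ratio scaling called 5, 4 and 5 higher. Leaving out each library or replicate number gave 0 to 37 calls, 0 to 26 higher and 0 to 11 lower: 4 without Control replicate 1, 10 without Control 2 or LDL 2, 6 without oxLDL 1, 7 without oxLDL 2, 37 without oxLDL 3, 0 without replicate number 1 and 6 without number 2. Between oxLDL and LDL, 35 genes were called, against 14 with no replicate block, 5 with no filter, 8 with a prior without trend and 62 with no small RNA or clone-named models, and 3 to 43 when a library or number was left out. The cause of these shifts was not tested. The cholesterol synthesis median ran from -0.77 to -0.54 and that of the NRF2 targets from 0.46 to 0.56 over 24 alternatives. No called gene reversed, but all 17 had separate groups and one direction in all 3 pairs. That outcome was therefore largely fixed in advance and says little about how firm the calls are. Scaling moved the median of all genes by less than 0.02. Depth is unknown, so its limits on low genes cannot be given.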

Other observations

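The mitochondrially encoded gene mt-Co2, a subunit of cytochrome oxidase, was at 19.3, 597 and 651 TPM in Control, 0, 429 and 289 TPM in oxLDL and 19.0, 363 and 527 TPM in LDL. The library of number 1 was far lower than those of numbers 2 and 3 in every treatment, so the gene varied with the replicate number (log2 oxLDL minus Control -2.0, adjusted p = 0.51 by limma with the block). Lcn2, the siderophore-binding lipocalin, was at 45.1, 824 and 118 TPM in Control and 146, 468 and 577 TPM in oxLDL, and Saa3, an acute phase gene, at 14.0, 69.4 and 11.8 TPM and 34.7, 42.8 and 63.0 TPM. Both were higher with oxLDL in pairs 1 and 3 and lower in pair 2, with adjusted p of 0.61 and 0.64. Lcn2 and Saa3 were chosen after their values were seen.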
